A study of Thermothelomyces thermophilus ATCC 42464 with 4 samples.

Results

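The windows described here are the 249 windows of 1 kb in the genome of Myceliophthora thermophila, a thermophilic cellulolytic fungus, whose listed methylated cytosines were richest in CG sites. They were selected on the WT lists. A window entered when it held at least 50 listed sites in both WT libraries and when at least 20% of them were CG sites in both. Of 10089 windows with at least 50 listed sites in both WT libraries, 249 met the rule and 9840 did not, and the latter are called the other windows. Whole-genome bisulfite sequencing was carried out on 4 libraries of mycelial DNA from ATCC 42464 strains exposed to glucose for 24 h, 2 of strain WT and 2 of strain ΔlaeA. In strain ΔlaeA a marker cassette had taken the place of the coding region of laeA, which encodes a putative methyltransferase, and the labels call the same libraries a knockdown. The sources do not say whether the 2 libraries of a strain came from separate cultures. The p-values of the edgeR, permutation and sign-flip tests thus rest on the spread between these libraries, which may be technical. Fisher's exact test, given in places, sums the reads of each strain, so that spread plays no part in it.

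In bisulfite sequencing an unmethylated cytosine is read as T and a methylated one stays C. Cytosines are sorted by the bases that follow them into CG, CHG and CHH sites, where H is any base but G. A CG site faces another CG site on the other strand, and a CHG site faces a CHG site or, in CCG, a CG site. Sites of either kind can be methylated on both strands, whereas a CHH site has no such partner. In filamentous fungi, as studied most closely in Neurospora crassa, methylated cytosines of all contexts lie mainly in repeated DNA altered by repeat-induced point mutation, a process that turns C into T in repeats and leaves them rich in A and T.

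A listed site is a cytosine that the authors called methylated. Every list held only sites with at least 5 reads, at least 2 methylated reads and a level of at least 5%, so a site missing from a list was unmethylated, too weakly methylated or too thinly covered. The lists held between 1899567 and 2044100 sites, with a median depth of 47 to 59 reads, lowest in ΔlaeA replicate 2, and 1326747 sites were listed in all 4 libraries (shared sites). CG sites made up 11.8% to 12.3% of each list. The targeted gene laeA (MYCTH_2294559) held 2 and 1 listed sites in WT and 62 and 25 in ΔlaeA, with a stretch of 592 bp inside it where neither ΔlaeA list had a site. The WT lists held only 0 and 1 sites in that stretch. Lists of called sites do not show where reads were missing, so the deletion could not be checked with them.

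The CG-rich windows held more CG sites without holding fewer CHH sites. The mean number of listed CG sites per window was 52.5 and 53.3 in WT and 49.99 and 47.4 in ΔlaeA, against 23.5, 23.8, 22.8 and 21.4 in the other windows. The ratio of CG-rich to other windows was between 2.19 and 2.24 in the 4 libraries. CHG sites, which the rule did not name, also stood higher, at 29.96, 30.3, 29.2 and 28.2 per window against 18.4, 18.6, 18.1 and 17.3, a ratio of 1.61 to 1.63. CHH sites were as many in the CG-rich windows as elsewhere, with 155, 157, 154 and 147 against 155, 157, 155 and 146 per window. The excess thus lay in both contexts that face a cytosine on the opposite strand. In CCG the first C is a CHG site and the second a CG site, so these counts are partly linked by sequence. How much of the CHG excess came from this link was not tested. The WT counts belong to the rule, so all of these are descriptions without a test.

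**Figure D1:**
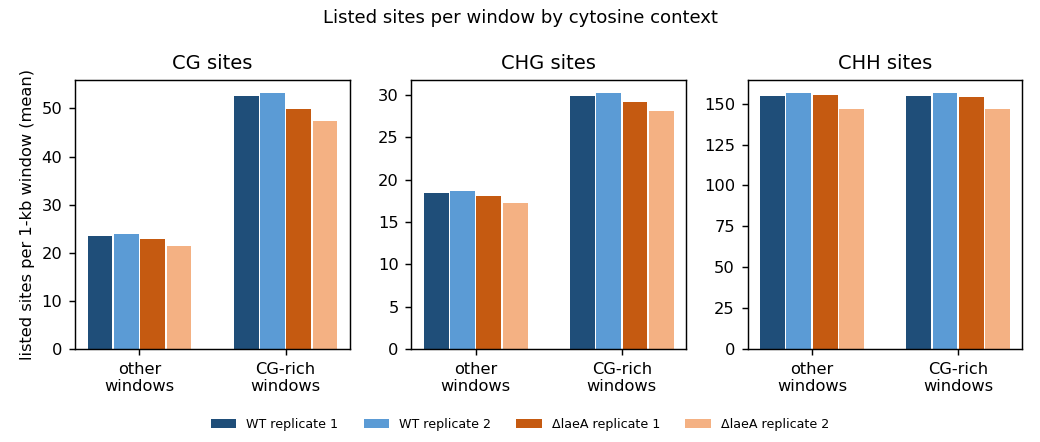
Mean number of listed sites per 1-kb window (vertical axis, separate scale for each context) in the 9840 other windows and the 249 CG-rich windows, 1 bar per library. CG bars of the CG-rich windows stand at 47.4 to 53.3 against 21.4 to 23.8, CHG bars at 28.2 to 30.3 against 17.3 to 18.6, and CHH bars at the same height in both sets.

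The ΔlaeA lists, which had no part in the choice, carried the same feature. No genome sequence was read, so the number of CG cytosines present in each window is not known. The part of base composition in the CG share was not tested. Pooled over the CG-rich windows, the CG share of listed sites was 22.1% and 22.2% in WT and 21.5% and 21.3% in ΔlaeA, with a ΔlaeA mean of 21.4% ± 0.108 (SD, n = 2). In the other windows it was 11.9%, 12.0%, 11.6% and 11.5%. The share was at least 20% in both ΔlaeA lists in 150 of the 249 windows (60.2%) and in at least 1 of them in 211 (84.7%). A set taken at a threshold in some lists tends to fall back in any further list, so the drop between the strains was not tested. Its size within WT was seen when a single list made the choice, an analysis added after the data were seen. The 399 windows chosen by WT replicate 1 alone had a share of 21.7% in that list and 20.9% in the other WT list, and 20.6% and 20.5% in ΔlaeA. The 419 windows chosen by WT replicate 2 alone had 21.7% there, 20.8% in WT replicate 1 and 20.6% and 20.4% in ΔlaeA.

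**Figure D2:**
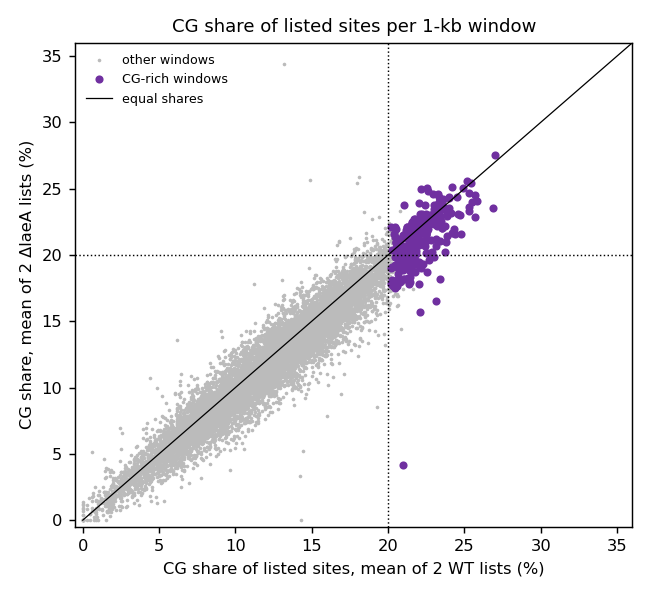
CG share of listed sites per 1-kb window, as the mean of the 2 WT lists (horizontal axis, percent) and of the 2 ΔlaeA lists (vertical axis, percent), with the 249 CG-rich windows in purple, the 9840 other windows in grey, a line of equal shares and dotted lines at 20%. The purple points are cut off on the left by the rule and scatter around the line of equal shares, with 1 window at 4.17% in ΔlaeA that had few listed sites left there.

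The windows formed the thin upper end of a continuous range. The highest mean WT shares were 27.0% at 7400001 to 7401000, 26.9% at 5042001 to 5043000, 25.8% at 9854001 to 9855000, 25.7% at 5041001 to 5042000 and 25.7% at 9855001 to 9856000, all on chromosome 1. In the first of these the 4 lists held 335, 335, 340 and 328 sites, of which 89, 92, 92 and 92 were CG. Just inside the threshold lay 5719001 to 5720000 of chromosome 1 and 1934001 to 1935000 and 3711001 to 3712000 of chromosome 5, each with exactly 20% in its lower WT list. Just outside lay 913001 to 914000 and 6628001 to 6629000 of chromosome 1 and 1292001 to 1293000 of chromosome 7, each with 19.9%. Another 315 windows reached 20% in only 1 of the WT lists. The median of the CG-rich windows was 21.8% and the highest 27.0%, so most of them were near the threshold.

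The CG-rich windows were unevenly spread and mostly isolated. Chromosome 1 held 93 of them, or 4.10% of its windows with at least 50 listed sites in both WT lists. The percentage was 2.97% on chromosome 2, 1.78% on chromosome 3, 1.75% on chromosome 4, 1.38% on chromosome 5, 2.37% on chromosome 6 and 1.90% on chromosome 7. They fell into 200 runs of adjoining windows, of which 173 were a single window and 27 held the remaining 76. Their direct neighbours were intermediate, with a median CG share of 16.2% in WT over 353 neighbouring windows against 11.8% over the 9487 others. The methylated block around a window, a stretch of adjoining windows with at least 10 listed sites each in both WT lists, had a median length of 41 kb. Such blocks were at least 20 kb long for 73.1% of the CG-rich and 85.0% of the other windows, and 8.84% and 5.85% lay at the edge of a block. Only 1.61% lay within 50 kb of a chromosome end, against 1.72% of the other windows.

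The longest run was chromosome 1, 7397001 to 7404000, with 7 adjoining windows in a block of 26 kb. Its mean level at shared sites was 22.7% and 22.9% in WT and 22.3% and 21.7% in ΔlaeA. The edgeR test described further on called 0 of its windows, with 0 at an unadjusted p under 0.05. Fisher's exact test on summed reads called 4, but it also called 35.7% of all windows and 44.1% of the CG-rich windows. The second longest was chromosome 1, 5038001 to 5044000, with 6 windows at 22.0% and 21.5% in WT and 19.0% and 18.5% in ΔlaeA. Runs of 4 windows began at 6679001 and 9854001 of chromosome 1, 3081001 of chromosome 6 and 2601001 of chromosome 7.

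Few CG-rich windows touched an annotated gene, as was true of methylated windows in general. A gene was overlapped by 19 of them (7.63%) against 5.72% of the other windows, and 9 (3.61%) lay wholly inside a gene against 2.05%. The median distance to the nearest gene was 6457 bp. The 19 windows touched 14 protein-coding genes, for which neither the annotation nor the study's text used here gave a function. MYCTH_2123212, a gene of 9970 bp on chromosome 1 (5038711 to 5048680), carried the most, with 6 windows and 5290 bp of overlap. It held 2259, 2256, 2225 and 2098 listed sites in the 4 libraries, and only 3, 2, 4 and 2 of these lay beyond 5046000, where the methylated block ended inside the gene. Of the other genes overlapped by at least 500 bp, MYCTH_2130249 (12131 bp, chromosome 6), MYCTH_2135800 (9657 bp, chromosome 6), MYCTH_62778 (9000 bp, chromosome 1) and MYCTH_64530 (5235 bp, chromosome 2) each held 1 whole window, and MYCTH_68404 (878 bp, chromosome 3) lay inside 1. The regulatory and metabolic genes that the study followed (xlnR, clr-1, clr-2, fbp, pck, cre-1, grf-3, grf-2 and grf-1) were between 5416 and 562950 bp from the nearest CG-rich window and held 0 to 6 listed sites in any library.

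The question of how strongly these windows were methylated was put to the shared sites, where each library reads the same cytosines. Methylation level is the sum of methylated reads over all reads. In the CG-rich windows the CG level was 16.7% and 16.8% in WT and 16.4% and 15.97% in ΔlaeA, against 15.5%, 15.5%, 15.1% and 14.98% in the other windows. The CHG level was 19.8%, 19.9%, 19.1% and 18.8%, against 18.2%, 18.3%, 17.9% and 17.6%. The CHH level was 19.3%, 19.4%, 18.9% and 18.5%, against 18.002%, 18.1%, 17.7% and 17.5%. In each context the CG-rich windows were higher in 4 of 4 libraries, by a mean of 1.22 percentage points in CG, 1.40 in CHG and 1.24 in CHH. The exact two-sided sign-flip test over 4 libraries gave p = 0.13 for each, the smallest value it can give, and 0.275 after Benjamini-Hochberg adjustment over 11 tests, so none passed 0.05.

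A richness in CG sites did not go with a higher level over the whole range. In WT replicate 1 the CHH level was 18.9% in the 904 windows with a lower WT share under 5%, 18.4% in the 3023 from 5% to 10%, 17.7% in the 3913 from 10% to 15%, 17.7% in the 2000 from 15% to 20% and 19.3% in the 249 CG-rich windows. The CG level in the same order was 16.6%, 15.8%, 15.4%, 15.4% and 16.7%. The level was thus lowest in the windows from 10% to 20%, which adjoin the threshold. When the threshold was set at 15%, the 2249 windows chosen differed from the rest by -0.168 percentage points in CHG and -0.202 in CHH. The signs of these differences therefore depended on the threshold.

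In most CG-rich windows the shared CG sites had a lower level than the shared CHH sites beside them. Cytosines that were not listed do not enter these levels. The WT mean CG level was below the CHH level in 226 of the 247 windows with both levels (91.5%), against 85.0% of 9630 other windows. The levels of the contexts followed each other from window to window, with a Pearson r of 0.884 between CG and CHH over 247 windows. That value describes windows of the same libraries, which share depth and are not replicates.

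**Figure D3:**
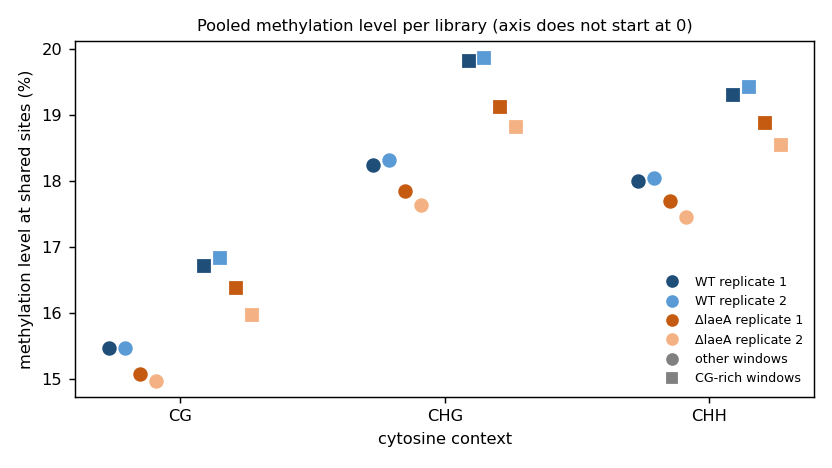
Methylation level at shared sites (vertical axis, percent, not starting at 0) for CG, CHG and CHH sites, 1 point per library, circles for the 9840 other windows and squares for the 249 CG-rich windows. Every square is above the circle of its library, and the ΔlaeA points are below the WT points in all 6 groups.

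CG dyads, the pairs of facing cytosines of a CG site, were more often listed on both strands. Of the listed dyads in CG-rich windows, 44.4% and 45.0% had both cytosines listed in WT and 43.8% and 40.9% in ΔlaeA. In the other windows the values were 34.8%, 35.4%, 34.5% and 32.2%, and the mean difference was 9.29 percentage points. In WT replicate 1 the percentage rose along the whole range of CG share, from 27.1% in the windows under 5% through 31.9%, 34.4% and 38.1% to 44.4%. A dyad with both cytosines listed adds 2 sites to the share that chose the windows, so this is a description. Both strands were listed alike, with 49.7% to 49.8% of sites on the plus strand.

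The CG-rich windows were read slightly more deeply at shared sites. Relative to the median depth of the library they stood at 1.03, 1.03, 1.06 and 1.08, against 1.012, 0.995, 1.0097 and 1.003 in the other windows, a difference of 0.0451 that was positive in 4 of 4 libraries (exact sign-flip test, p = 0.13, adjusted 0.275). Depth decides which sites can be listed, and its part in the number of listed sites was not tested. Depth of at least 1.5 times the median in every library was found in 1 of the 249 windows (0.402%) and in 6 of the 9840 other windows (0.0610%).

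Strain ΔlaeA had lower levels than WT in these windows in all 3 contexts. The difference was -0.600 percentage points in CG, -0.865 in CHG and -0.649 in CHH, with both ΔlaeA libraries below both WT libraries each time. The exact permutation test of 2 against 2 libraries gave p = 0.33 for each, the smallest value 6 orderings allow, and 0.367 after adjustment. The other windows changed in the same direction, and the change of the CG-rich windows exceeded theirs by -0.153 in CG (exact p = 0.667, adjusted 0.667), -0.327 in CHG and -0.197 in CHH (exact p = 0.33 for both, adjusted 0.367). No difference between the window sets in their change passed 0.05. The CG value turned to 0.00717 without ΔlaeA replicate 2, the shallowest library. When every listed site of each library was used in place of the shared ones, the CG level was 13.4% in each of the 4 libraries, and the strain difference shrank to -0.0196 percentage points in CG, -0.329 in CHG and -0.256 in CHH. The WT lists that chose the windows are an arm of all these comparisons, so the choice can favour lower levels in ΔlaeA. How much of the differences came from the choice was not tested.

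Window by window, 32 CG-rich windows were called as different between the strains, 31 lower and 1 higher in ΔlaeA. The test was the quasi-likelihood F-test of edgeR. Methylated and unmethylated reads were summed over the shared sites of each window, windows with at least 10 such sites entered, and p-values were adjusted over all 10187 of them. It called 4.59% of all windows at an adjusted p under 0.05. Of the 247 CG-rich windows that could be tested, 32 were called (13.0%). Lower levels in ΔlaeA were called in 31 of them (12.6%), against 3.53% of all windows, and a higher level in 1 (0.405%), against 1.06%. By direction alone, 173 of the 247 (70.0%) had a lower fitted level in ΔlaeA, beside 68.4% of all windows. The WT lists that chose the windows are also 1 arm of this test. Windows rich in CG sites in the ΔlaeA lists alone could not enter, so the choice can favour falls. Under the same rule applied to both ΔlaeA lists, an analysis added after the data were seen, 220 windows were chosen and tested, of which 148 were among the 249. Of the 220, 20 were called (9.09%), 17 lower (7.73%) and 3 higher (1.36%), and 132 had a lower fitted level in ΔlaeA. Among the 148 windows chosen by all 4 lists, 17 were called (11.5%), 16 lower and 1 higher. Each choice uses reads of the test, so these percentages are descriptions, and how much of the count came from the choice was not tested.

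The percentage called did not climb steadily with CG share. It was 4.45% in the other windows with a share under 5%, 3.84% from 5% to 10%, 4.05% from 10% to 15% and 5.33% from 15% to 20%, before the 13.0% of the CG-rich windows. CG-rich windows held more shared sites, with a median of 165 against 126, and the part of this in the count was not tested beyond the next comparison. Between 131 and 201.5 shared sites, the middle range of the CG-rich windows, 16 of 123 CG-rich windows (13.0%) and 155 of 3628 other windows (4.27%) were called. The 32 called windows were not independent, since they lay in 21 methylated blocks, and the 249 lay in 117.

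As over all windows, the count of called CG-rich windows rested on both WT libraries. Without WT replicate 1 or without WT replicate 2 it was 14 of 247 (5.67%), against 1.42% and 1.28% of all windows. Without ΔlaeA replicate 1 it was 28, against 4.68% of all windows, and without ΔlaeA replicate 2 it was 25, against 3.75%. In every one of these 4 fits 10 of the 32 windows stayed called. On chromosome 1 these were 2931001, 2979001 and 6670001, on chromosome 3 they were 2162001, 4221001 and 4231001, on chromosome 6 they were 1043001 and 3474001, and on chromosome 7 they were 2602001 and 2604001, each given by its first base. How many of all called windows held in every fit is not given here, so this count does not set the CG-rich windows apart. With the overall level of each library as an offset, which removes the general fall in ΔlaeA, 27 CG-rich windows were called, 24 lower and 3 higher, against 4.18% of all windows. At CG sites alone 15 of 239 were called, against 1.57% of all windows so tested.

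**Figure D4:**
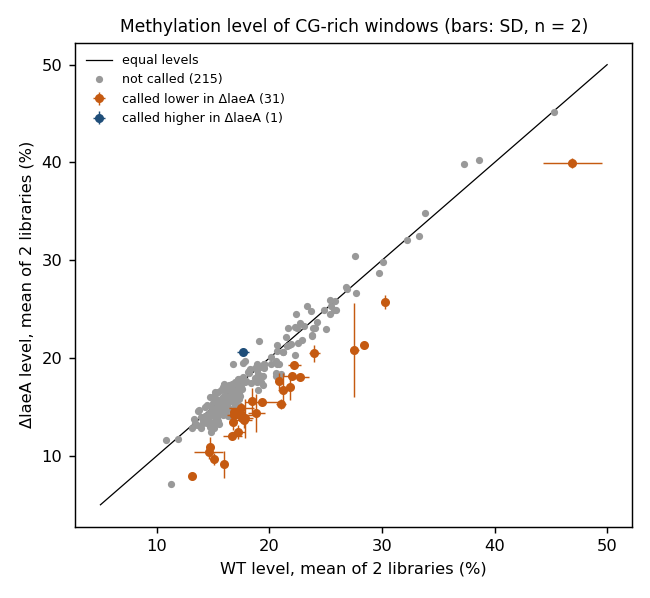
Methylation level at shared sites of the 247 tested CG-rich windows in WT (horizontal axis, percent, mean of 2 libraries) and ΔlaeA (vertical axis, percent, mean of 2 libraries), with the line of equal levels. The 31 windows called lower lie under the line, 1 called higher lies above it, and bars on the called windows are the SD of 2 libraries.

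In the 31 windows called lower, both ΔlaeA levels were under both WT levels in all 31, and the mean level was lower in each of CG, CHG and CHH. The call rests on these same levels, so this is a description. Without that choice, both ΔlaeA levels were under both WT levels in 38.2% of the CG-rich and 36.8% of the other windows. The falls ranged from -2.40 to -7.15 percentage points with a median of -4.01. They were found on chromosomes 1, 3, 4, 5, 6 and 7. On chromosome 2 edgeR called 0 of 29, beside 4.59% of all windows, and 4 had an unadjusted p under 0.05. Fisher's exact test on summed reads called 9 of the 29, beside 35.7% of all windows. Counts among 29 windows do not set this chromosome apart.

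The largest fall was at chromosome 1, 2931001 to 2932000, 2111 bp from the nearest gene. Over 215 shared sites its level was 28.3% and 28.6% in WT and 21.1% and 21.5% in ΔlaeA (edgeR adjusted p = 4.6e-05). The ranges of the strains were far apart, and the window stayed called without any 1 of the libraries. At chromosome 1, 6762001 to 6763000, the most strongly methylated of all CG-rich windows, the level was 45.1% and 48.8% in WT and 40.3% and 39.6% in ΔlaeA (adjusted p = 0.0030). This window overlapped MYCTH_2297685 by 427 bp, a gene with at most 2 listed sites in any library, so nearly all of the listed sites lay beyond the gene. Its call was lost without WT replicate 2 (edgeR adjusted p = 0.13).

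The window with the largest relative fall among the 5 largest was chromosome 3, 2162001 to 2163000. Its level over 59 shared sites was 15.97% and 15.95% in WT and 10.1% and 8.16% in ΔlaeA (edgeR adjusted p = 2.2e-05). Listed sites fell as well, from 234 and 209 to 135 and 103, and CG sites among them from 53 and 45 to 20 and 17. The CG share of this window dropped from 22.1% to 15.7%. A further fall was called at chromosome 4, 2023001 to 2024000, and the call was lost without ΔlaeA replicate 2 or without either WT library. Over 38 shared sites the level was 27.3% and 27.9% in WT, 24.2% in ΔlaeA replicate 1 and 17.4% in ΔlaeA replicate 2 (edgeR adjusted p = 0.030), and the adjusted p was 0.43 without ΔlaeA replicate 2, 0.19 without WT replicate 1 and 0.22 without WT replicate 2.

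Some called windows lay together. All 4 CG-rich windows of a 7-kb block on chromosome 7, 2601001 to 2605000, were called lower. Their mean level was 21.4% and 21.7% in WT and 16.7% and 16.9% in ΔlaeA. In the first, at 2601001, the level was 20.9% and 21.5% in WT and 15.5% and 17.9% in ΔlaeA, and in the last, at 2604001, it was 21.3% and 20.7% in WT and 15.6% and 14.97% in ΔlaeA (edgeR adjusted p = 0.0033 and 6.3e-05). The call at 2601001 was lost without WT replicate 1, WT replicate 2 or ΔlaeA replicate 1 and that at 2603001 without WT replicate 2, whereas the calls at 2602001 and 2604001 held in all 4 fits. The CG share of the run stood at 23.0% in WT and 22.8% in ΔlaeA. In the same block, the windows at 2598001 and 2599001, with CG shares of 13.1% and 10.98%, had levels of 28.3% to 36.1% in the 4 libraries and were not called, whereas the window between them and the run, with a share of 16.5%, was called lower. Of the 3 windows of this block that were not CG-rich, 1 was thus called. Whether the level or its fall in ΔlaeA goes with CG share along the block was not tested.

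A second group lay at the lower-coordinate end of MYCTH_2123212 on chromosome 1, where the block from 5029001 to 5046000 had 17 windows and 11 of them were CG-rich. The 3 windows from 5038001 to 5041000 were called lower. At 5038001 the level was 18.2% and 17.2% in WT and 14.3% and 13.1% in ΔlaeA, at 5039001 it was 23.3% and 22.2% against 18.3% and 17.9%, and at 5040001 it was 24.3% and 23.6% against 21.1% and 19.9% (edgeR adjusted p = 0.0014, 0.0014 and 0.023). All 3 calls were lost without WT replicate 1, and that at 5040001 also without WT replicate 2 or ΔlaeA replicate 2. The next 3 CG-rich windows in the gene were lower by mean level without being called. The 5 CG-rich windows of the block that came before the gene were each higher by mean level in ΔlaeA. Of these edgeR called 0, with 1 at an unadjusted p under 0.05. Fisher's exact test on summed reads, which called 35.7% of all windows, called 3. Among the 11, 6 were thus lower and 5 higher by mean level. The first lower window began at 5038001, outside the gene, which begins at 5038711. Whether the sign is tied to the gene was not tested. The annotation used here gives no strand, so it is not known whether this end of the gene is the start or the end of transcription.

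**Figure D5:**
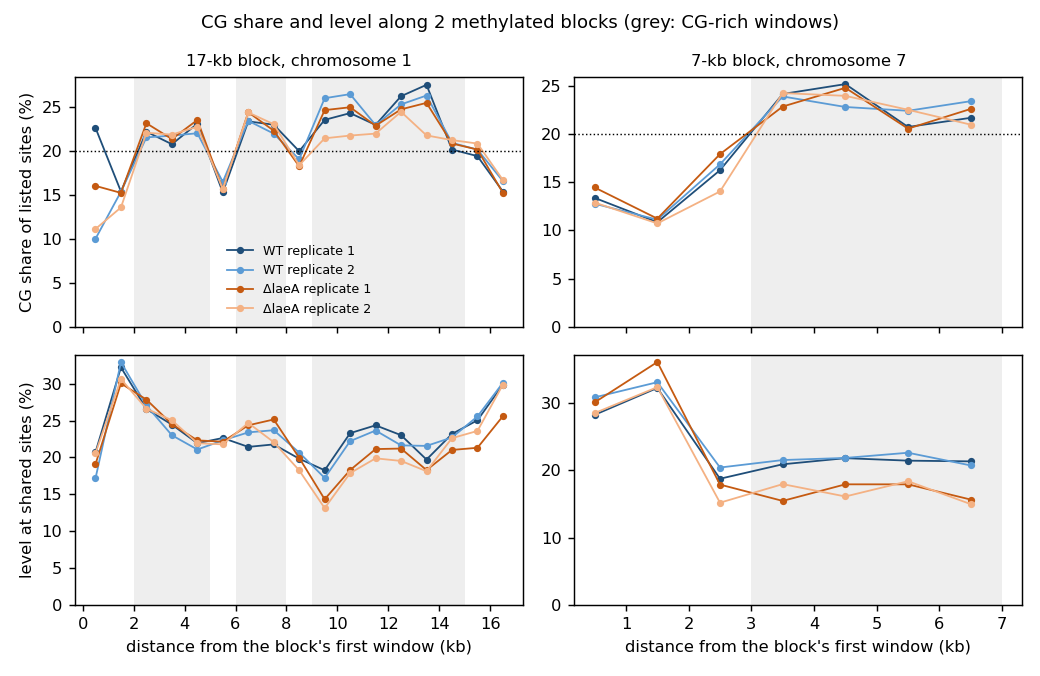
CG share of listed sites (upper panels, percent, dotted line at 20%) and level at shared sites (lower panels, percent) in consecutive 1-kb windows of the 17-kb block of chromosome 1 and the 7-kb block of chromosome 7, by distance from the first window of the block (kb), with 1 line per library and CG-rich windows in grey. On the left the ΔlaeA lines drop under the WT lines from 9 to 15 kb, and on the right they lie under the WT lines in all 4 grey windows.

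Smaller groups of called windows were found on chromosomes 3, 4 and 6. On chromosome 6 the adjoining windows at 1042001 and 1043001 fell from 19.4% and 18.3% to 15.8% and 13.0%, and from 16.8% and 17.6% to 12.9% and 11.9%. On chromosome 4, 38001 to 39000, 41001 to 42000 and 42001 to 43000 were called within 5 kb. On chromosome 3, 4221001 to 4222000, 4231001 to 4232000 and 4233001 to 4234000 were called within 13 kb. In MYCTH_62778 the 1 CG-rich window, at 2979001, fell from 12.9% and 13.3% to 7.65% and 8.22% over 29 shared sites (edgeR adjusted p = 0.00096). The windows in MYCTH_2130249, MYCTH_2135800, MYCTH_64530 and MYCTH_68404 were not called. The single window called higher, chromosome 1, 936001 to 937000, was at 18.03% and 17.3% in WT and 20.9% and 20.4% in ΔlaeA (edgeR adjusted p = 0.027), and of the 4 fits that left out a library only that without ΔlaeA replicate 2 kept the call.

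In 3 CG-rich windows most listed sites were gone from both ΔlaeA lists. Chromosome 7, 1389001 to 1390000, which lay 579 bp from MYCTH_2316515, had 120 and 123 listed sites in WT and 14 and 13 in ΔlaeA. Chromosome 3, 3804001 to 3805000, had 126 and 141 in WT and 24 and 7 in ΔlaeA. Chromosome 5, 3711001 to 3712000, had 100 and 119 in WT and 40 and 28 in ΔlaeA. Each had fewer than 50 sites in both ΔlaeA lists, which was the case in 1.20% of the CG-rich and 0.488% of the other windows, and the rule allows such a loss but not the reverse. The first and second had 1 shared site each and could not enter the window test. Sites still listed were read at a depth like that in WT, at 57.4 and 67.3 reads in WT and 54.4 and 53.3 in ΔlaeA for the first. WT levels there were weak, with 11.2% over 10 shared sites in the window of chromosome 5, against a median of 17.1% over all CG-rich windows.

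At the other end, the strongest windows after the one beside MYCTH_2297685 were not called. Chromosome 4, 2137001 to 2138000, was at 44.7% and 45.8% in WT and 45.4% and 45.0% in ΔlaeA, so that the strains overlapped (edgeR adjusted p = 0.99). Chromosome 1, 7411001 to 7412000, was at 38.6% and 38.6% in WT and 43.0% and 37.5% in ΔlaeA, with the ΔlaeA libraries on either side of WT (adjusted p = 0.58). Of the weakest, chromosome 6, 1481001 to 1482000, was at 10.9% and 10.7% in WT and 11.3% and 11.9% in ΔlaeA over 26 shared sites, and it was not called. Its WT mean of 10.8% was the lowest among windows with at least 10 shared sites, and 46.9% was the highest. A lower value, 8.35% at chromosome 7, 1389001 to 1390000, came from 1 shared site.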

How the data were processed

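DNA of 2 WT and 2 ΔlaeA libraries was bisulfite treated with a lambda DNA spike and sequenced with paired ends. The submitters' processing notes name FastQC 0.11.5 and Bismark 0.16.3, and the rule for calling a site is not given in the sources used here. For each library the authors deposited methylated and unmethylated read counts per called cytosine, its level as a fraction of methylated over all reads, and a p-value of the call. Only the counts, contexts and positions were used. A deposited table of differentially methylated regions, which holds the authors' own means per strain, differences and an area statistic, was not used.

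Windows of 1 kb were counted from the first base of each of 7 chromosomes, whose names match assembly ASM22609v1. RefSeq gene coordinates of that assembly (9292 genes, no strand) were used, and no sequence was read. Members, lists and named windows were chosen with earlier results of these data known. The named windows were the 5 highest CG shares, the 3 on each side of the threshold, the longest runs, the 5 largest called falls and rises, the 3 highest and 3 lowest levels and the genes overlapped by at least 500 bp, other windows being named after their values were seen. Levels were compared between strains by exact permutation of libraries and between window sets by exact sign flips within libraries. Windows with at least 10 shared sites and 10 methylated reads were tested with edgeR 4.0.16 (R 4.3.3), without a dispersion trend, the prior of the quasi-dispersion following abundance, and checked on simulated data. Replicates differed by more than independent cytosine calls would, with a mean chi-square of 3.43 in WT and 3.39 in ΔlaeA on 1 degree of freedom. Neighbouring cytosines can be covered by the same read, so their calls need not be independent. The alternatives were the threshold, the site minimum, the window grid, the coverage minimum, site sets, contexts, Fisher's exact test, an offset, a replicate block and leaving out each library.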

Additional observations from a re-analysis of the deposited data

How the results depend on the processing

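Alternatives to the rule moved the set itself. At a CG share of 15%, 138 of 2236 tested windows were called (6.17%, against 4.59% of all windows), 139 touched a gene, the pooled CG share in the ΔlaeA lists was 17.5%, the difference from other windows was -0.168 percentage points in CHG and -0.202 in CHH, and the CHH change relative to other windows was 0.0313. At 25%, 5 windows remained, of which 0 were called by edgeR (2 at an unadjusted p under 0.05, 3 by Fisher's exact test), with a share of 24.7% in ΔlaeA, 2 touching a gene and a relative depth difference of -0.00827. On windows shifted by 500 bp the share was 21.2% and 33 of 249 were called (13.3%, against 5.67% of all windows). Choosing by WT replicate 1 or 2 alone, added after the data were seen, gave 20.6% and 20.5%. With an overlap of at least 500 bp, 10 windows touched a gene.

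The number called ranged from 14 to 28 when 1 library was left out, and the CG change relative to other windows from -0.313 to 0.00717. It was 20 of 220 when both ΔlaeA lists made the choice and 17 of 148 when all 4 did, both added after the data were seen. It was 15 at CG sites only and 109 (44.1%, against 35.7% of all windows) by Fisher's exact test on the summed reads of each strain, where the difference between replicates plays no part. With no abundance trend in the prior, added later, it was 34, against 4.77% of all windows. With the replicate number as a block it was 29, against 4.69% of all windows, and the level differences then had a smallest possible p of 0.5. Same-numbered libraries did not deviate together from window to window (r = 0.0018 over all windows). A shift common to all windows of a library would not change this value, so it cannot decide whether the numbers pair the samples.

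No difference between libraries passed 0.05 under any alternative, so only their signs and sizes can be followed. The strain difference ran from -0.994 to -0.0196 percentage points in CG, -1.62 to -0.329 in CHG and -1.08 to -0.256 in CHH. The difference from other windows ran from 0.127 to 2.57 in CG, -0.168 to 4.18 in CHG and -0.202 to 2.85 in CHH. The lists hold no unlisted cytosines, so levels over all cytosines of a window cannot be given, and 2 libraries per strain keep every exact p at 0.13 or above.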
